A study of Vitis vinifera with 9 samples.

Results

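The MYB transcription factor genes MYB14, LOC100254518, MYBPA1, LOC100245771, LOC100256209 and LOC100256181 were followed in grapevine leaves at the start of a UV-C treatment and after it. These 6 genes, of 8040 gene symbols in the annotation of the deposited tables, were taken by symbol, and 7 of the 16436 probe sets tested measured them. MYB14 had 2 probe sets and each other gene had 1. The genes were chosen by their fold changes against the control on these same arrays, so their signals against the control are given as a description and no p-value of those contrasts is read. The annotation titled only MYB14 and MYBPA1 as MYB proteins. It gave LOC100256209 a moderate and LOC100256181 a weak similarity to an Arabidopsis MYB protein, and listed LOC100254518 and LOC100245771 as hypothetical proteins. The study names LOC100254518 as a Myb4-like factor, LOC100256181 as an R3-type MYB factor and LOC100245771 as a MYB factor, and their protein sequences were not analysed here.

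Each of the 3 groups held 3 arrays, and each array came from a replicate of 6 mature, detached leaves, 30 days old, of Vitis vinifera ‘Hongbaladuo’. Leaves of all groups stood with their petioles in water and were kept in the dark at first. Control leaves were collected at 0 h of the treatment, and the other leaves received 6 W m−2 of UV-C on the abaxial side for 10 min and were collected 6 h or 12 h after the treatment began. No group without UV-C at 6 h or 12 h was analysed here, so UV-C cannot be told apart from the time since detachment or from the time of day. The signals come from whole leaves, in which fewer cells that express a gene and less RNA per cell cannot be told apart.

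The arrays of a group correlated at 0.988 or higher over all probe sets. The summed signal of 13 leaf marker probe sets (chlorophyll a/b-binding proteins, RuBisCO small subunit and RuBisCO activase) lay between 133519 and 150158 on the control arrays, between 87140 and 91960 at 6 h and between 43835 and 51334 at 12 h. The lowest group mean among them was a signal of 133, at 12 h, and their part in the values of the MYB genes was not tested. The log2 difference between the 3′ and 5′ probe sets of glyceraldehyde-3-phosphate dehydrogenase was 2.05 to 2.22 on control arrays, 1.97 to 2.17 at 6 h and 1.26 to 1.47 at 12 h, and that of actin was 4.37 to 4.82, 4.49 to 4.71 and 4.42 to 4.60.

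MYB proteins bind DNA through repeats of a helix-turn-helix fold, and in plants the R2R3 type controls much of phenylpropanoid metabolism. In grapevine, MYB14 activates promoters of stilbene synthase genes, which make resveratrol from the same precursors that chalcone synthase takes into flavonoids, and MYBPA1 activates genes of the proanthocyanidin (condensed tannin) branch. MYB factors of anthocyanins and proanthocyanidins act with a bHLH protein and probably a WD-repeat protein. MYB4 of Arabidopsis is a repressor of the gene for cinnamate 4-hydroxylase, and whether LOC100254518 acts likewise was not tested.

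The designed sequences at hand for these genes were the qRT-PCR primers, shown because they mark the transcripts of the MYB genes with the highest folds. They are written 5′ to 3′ in lower case. In the RefSeq table of the assembly ASM3070453v1, MYB14 lies on chromosome 7 and LOC100254518 on chromosome 5.
MYB14 forward: caagccccttccctcatatttc
MYB14 reverse: gtgctgtcattggcagtag
LOC100254518 forward: ccccatcttctcactaaccg
LOC100254518 reverse: tggcatggagttctggtatg
The MYB14 primers are 22 and 19 bases long with 50.0% and 52.6% G and C, and those of LOC100254518 are both 20 bases long with 55.0% and 50.0%. The qRT-PCR values themselves were not analysed here.

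MYB14 went from a faint to a bright signal within 6 h and stayed there at 12 h. Its probe set with the suffix _s_at, which marks probes that can match more than 1 transcript, gave RMA signals (background-adjusted, quantile-normalized intensities) of 18.5, 13.2 and 16.7 on the 3 control arrays. The signals were 2620, 3660 and 3729 at 6 h and 3586, 3428 and 3141 at 12 h. Every irradiated array lay far above every control array, while the ranges of 6 h and 12 h overlapped. Against the control this was 206-fold at 6 h (log2 7.69 ± 0.17, standard error of the limma fit, n = 3 arrays per group) and 212-fold at 12 h (log2 7.73 ± 0.17). The comparisons with the control share the same control arrays.

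The other MYB14 probe set, with the suffix _at, had the same course at a smaller fold. It gave 10.4, 8.48 and 11.1 in the controls, then 580, 756 and 816 at 6 h and 1007, 908 and 824 at 12 h. Its 3 groups did not overlap with each other. It was 71.5-fold above the control at 6 h (log2 6.16 ± 0.16) and 91.7-fold at 12 h (log2 6.52 ± 0.16). Within each irradiated group both MYB14 probe sets ordered the arrays alike, with replicate 1 lowest at 6 h and highest at 12 h.

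**Figure D1:**
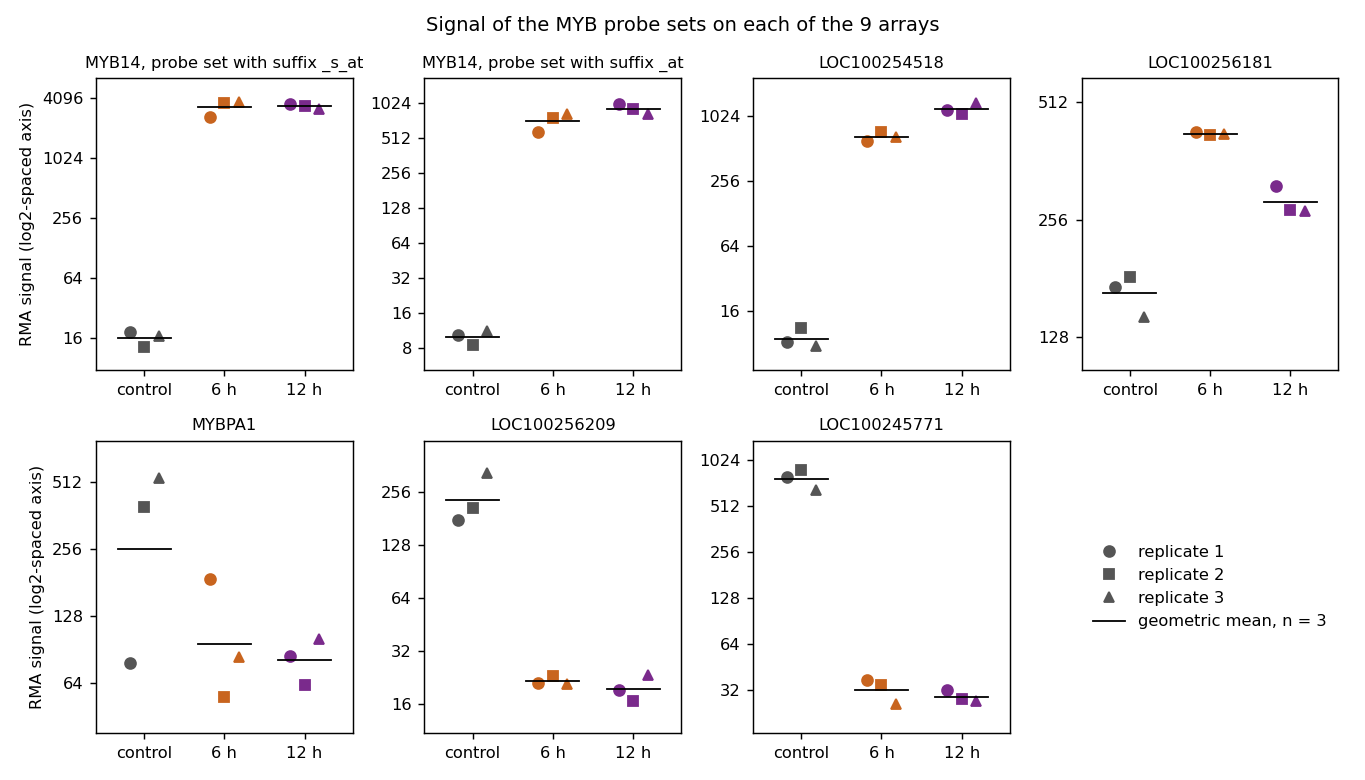
RMA signal (vertical axis, log2-spaced) of the 7 MYB probe sets in control leaves and 6 h and 12 h after UV-C; each symbol is 1 array, its shape the replicate number, and the line is the geometric mean of 3 arrays. MYB14 and LOC100254518 sit at 18.5 or below on the control arrays and at 580 or above after UV-C, while the MYBPA1 control arrays spread from 79.2 to 534.

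LOC100254518, the Myb4-like factor of the study, also went from faint to bright signals and was still higher at 12 h than at 6 h. Its only probe set also has the suffix _s_at, so the signal may not come from this gene alone. Its signals were 8.24, 11.1 and 7.66 in the controls, 594, 722 and 653 at 6 h and 1155, 1074 and 1349 at 12 h. No array of a group overlapped with an array of another group. The signal was 73.6-fold above the control at 6 h (log2 6.20 ± 0.16) and 134-fold at 12 h (log2 7.06 ± 0.16). Because the control signals of MYB14 and LOC100254518 were low, these folds depend on the offset: with 16 added to every signal the log2 changes were 6.69 and 6.73 for the _s_at probe set of MYB14, 4.80 and 5.16 for its _at probe set, and 4.75 and 5.59 for LOC100254518. Whether these control signals lay above background was not tested. A gene titled MYB4A, a flavonoid-related repressor that is a separate gene on this array, had log2 changes of 0.75 at 6 h and 0.55 at 12 h, with adjusted p-values of 0.00245 and 0.0126 from limma, both under 2-fold. LOC100233136, titled an R2R3 Myb protein with a C2 repressor motif, went the other way. Its log2 changes were −2.44 and −2.15, with adjusted p-values of 6.24e-07 and 9.61e-07 from limma.

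LOC100256181, the R3-type MYB factor of the study, was raised moderately, and more at 6 h than at 12 h. Its control signals of 172, 183 and 144 stood against 429, 423 and 424 at 6 h and 311, 271 and 270 at 12 h. All 3 groups were apart from each other, with the 12 h arrays between control and 6 h. It was 2.57-fold above the control at 6 h (log2 1.36 ± 0.11) and 1.71-fold at 12 h (log2 0.78 ± 0.11). Scaling the arrays to equal medians or to equal hybridization controls gave log2 values of 1.50 or 1.20 at 6 h and 0.92 or 0.63 at 12 h.

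LOC100245771 and LOC100256209 went the other way. LOC100245771 gave 790, 882 and 650 in the controls, 37.0, 34.5 and 25.9 at 6 h and 32.0, 27.7 and 27.1 at 12 h. Every control array exceeded every irradiated array, by 23.9-fold on average at 6 h (log2 −4.58 ± 0.16) and 26.6-fold at 12 h (log2 −4.74 ± 0.16). LOC100256209 gave 176, 208 and 328 in the controls, 21.0, 22.8 and 20.7 at 6 h and 19.1, 16.5 and 23.3 at 12 h. It was 10.6-fold below the control at 6 h (log2 −3.41 ± 0.22) and 11.8-fold at 12 h (log2 −3.56 ± 0.22), again without overlap, and the arrays of 6 h and 12 h overlapped for both genes. Because the signals of both genes after UV-C were low, these folds depend on the offset too. With 16 added to every signal the log2 changes were −4.02 and −4.13 for LOC100245771 and −2.71 and −2.79 for LOC100256209.

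LOC100256209 and LOC100256181 are near neighbours in the genome. Both lie on chromosome 8 of ASM3070453v1 with 1 protein-coding gene, LOC100245881, between them, and their signals went in opposite directions after UV-C. LOC100245771 lies on chromosome 17 and MYBPA1 on chromosome 15.

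MYBPA1, the activator of proanthocyanidin genes, was the only member whose control and irradiated arrays overlapped. Its signals were 79.2, 394 and 534 in the controls, 187, 55.9 and 83.9 at 6 h and 84.9, 63.1 and 101 at 12 h. Control replicates 2 and 3 were above all 6 irradiated arrays, whereas control replicate 1 lay among them. The mean log2 change was −1.42 ± 0.67 at 6 h (2.67-fold lower) and −1.65 ± 0.67 at 12 h (3.14-fold lower), with a control SD of 1.48 on the log2 scale. Without control replicate 1 the changes were −2.26 and −2.49, and without control replicate 3 they were −0.88 and −1.12.

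In the limma fit over all probe sets, where a call needs an adjusted p under 0.05 and a change of at least 2-fold, 26.6% of the 16436 probe sets were called at 6 h and 32.2% at 12 h. Of the 7 MYB probe sets, 4 were called higher and 2 lower at 6 h, and 3 higher and 2 lower at 12 h. Without control replicate 1, and at 12 h also without replicate 1 of 6 h, 3 were called lower, the added one being MYBPA1. The arrays of 6 of the 7 probe sets did not overlap with the control at either time, against 60.2% of all probe sets at 6 h and 64.4% at 12 h. Since the genes were picked for these contrasts, nothing is read from the counts.

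The comparison of 12 h with 6 h asks whether the signals still moved after the first sampling. It was not the contrast for which the genes were picked, although the same arrays entered that choice. LOC100254518 gained 1.81-fold from 6 h to 12 h (log2 0.86 ± 0.16, 95% interval 0.51 to 1.21, adjusted p = 0.00316 from limma). LOC100256181 was 1.50-fold lower at 12 h (log2 −0.59 ± 0.11, interval −0.84 to −0.33, adjusted p = 0.00396 from limma). In both genes all 3 arrays of 12 h lay on the same side of all 3 arrays of 6 h, and over all alternatives the adjusted p stayed between 0.00101 and 0.0156 for LOC100254518 and between 0.00211 and 0.0169 for LOC100256181. Both differences were under 2-fold.

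For MYB14 neither probe set passed the adjusted p between 6 h and 12 h. The log2 difference was 0.04 ± 0.17 for the _s_at probe set (interval −0.34 to 0.41, adjusted p = 0.90 from limma). It was 0.36 ± 0.16 for the _at probe set (interval 0.01 to 0.71, adjusted p = 0.12 from limma), with all 3 arrays of 12 h above those of 6 h, and the difference between the probe sets was not tested. LOC100245771 (−0.15, interval −0.52 to 0.21) and LOC100256209 (−0.15, interval −0.63 to 0.34) had adjusted p-values of 0.535 and 0.669 from limma. MYBPA1 had the widest interval, −1.73 to 1.26 around −0.23 (adjusted p = 0.837), and its sign turned to 0.25 without replicate 1 of 6 h. Thus 0 of 7 were called by limma at both thresholds, against 6.88% of all probe sets (2.34% higher and 4.54% lower). By the adjusted p alone 2 of 7 passed, against 4719 of all 16436 probe sets, so nothing is read from this count. An unadjusted p under 0.05 was found for 3, and its share over all probe sets was not counted. The same 3 had arrays that did not overlap, against 45.2% of all probe sets.

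**Figure D2:**
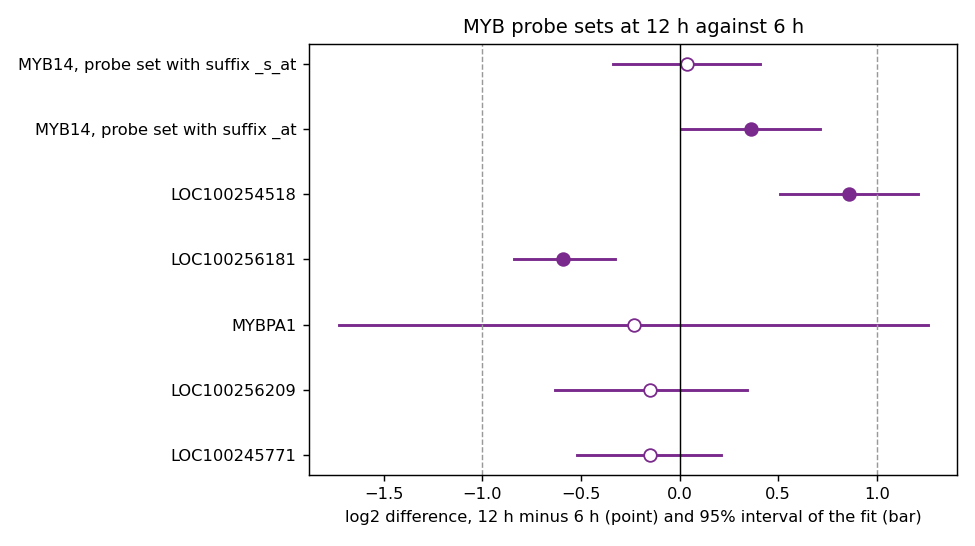
Log2 difference between 12 h and 6 h for the 7 MYB probe sets (point) with the 95% interval of the limma fit (bar); filled points are probe sets whose 3 arrays at 12 h do not overlap with those at 6 h, and dashed lines mark a 2-fold difference. LOC100254518 at 0.86 and LOC100256181 at −0.59 lie apart from 0 on opposite sides.

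Of 22 probe sets of other MYB factors found by a word search of the annotation, limma called 3 up and 6 down at 6 h and 4 up and 7 down at 12 h, with medians of −0.19 and −0.18 on the log2 scale. Over all probe sets tested, the calls were 11.9% up and 14.7% down at 6 h and 14.7% up and 17.5% down at 12 h, and the medians were −0.03 and 0.05. The MYB108-like protein LOC100248153 rose 16.5-fold at 6 h and 25.2-fold at 12 h, and LOC100241227, with a weak similarity to an Arabidopsis MYB protein, rose 3.53-fold and 4.91-fold. LOC100246960 fell, with log2 changes of −1.89 and −4.80. Its control signals were 3175, 2901 and 884, and without control replicate 3 the changes were −2.49 and −5.39. Also lower were LOC100253576 (−3.55 and −3.83) and LOC100247039 (−2.34 and −3.17). The word search does not find every MYB gene, as the members without a MYB title show.

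The stilbene synthase probe sets were on the same side as MYB14, while those of the entry steps before them went both ways. All 12 stilbene synthase probe sets rose at both times, with median log2 changes of 8.05 at 6 h and 7.85 at 12 h, and LOC100253166, a stilbene synthase gene, reached 539-fold at 6 h and 754-fold at 12 h. Several of these probe sets match more than 1 stilbene synthase gene, so they are not independent. Of 10 probe sets of phenylalanine ammonia-lyase, cinnamate 4-hydroxylase and 4-coumarate-CoA ligase, which supply both pathways, 6 were up and 2 down at 6 h, and 7 up and 2 down at 12 h. Cinnamate 4-hydroxylase-like LOC100253493 rose 10.7-fold and 20.5-fold by one probe set and 7.72-fold and 14.3-fold by the other. Without control replicate 3 the first of these gave log2 changes of 4.01 and 4.94 in place of 3.42 and 4.36. The phenylalanine ammonia-lyase genes went both ways. LOC100241377, similar to Arabidopsis phenylalanine ammonia-lyase, rose 6.47-fold and 7.90-fold, to mean signals of 6070 and 7490. Phenylalanine ammonia-lyase LOC100233012 fell 3.85-fold and 4.65-fold, to means of 79.7 and 64.8, and LOC100241575, similar to Arabidopsis PAL4, fell 3.55-fold and 3.26-fold, to means of 691 and 732.

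**Figure D3:**
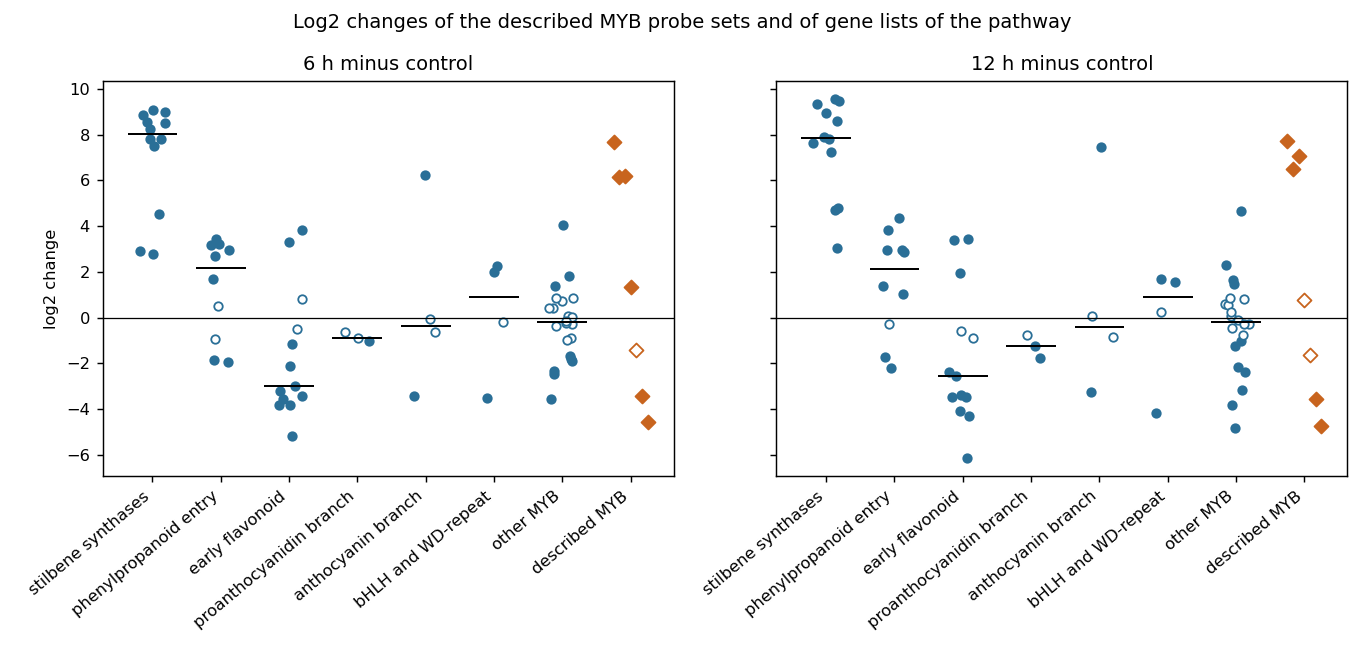
Log2 change at 6 h (left) and 12 h (right) against the control; circles are probe sets of 7 gene lists, with a line at each list's median, and diamonds are the 7 described MYB probe sets, filled where called (adjusted p under 0.05 and at least 2-fold). The stilbene synthases lie at 2.77 or above at 6 h, and most early flavonoid probe sets lie below 0.

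The early flavonoid enzymes mostly went down. Of 13 probe sets, 2 were up and 9 down at 6 h, and 3 were up and 8 down at 12 h, with median log2 changes of −2.98 and −2.54. Chalcone isomerase (CHI) rose 10.1-fold and 10.9-fold, and LOC100263428, weakly similar to a flavonoid hydroxylase of Arabidopsis, rose 14.1-fold and 3.84-fold. A probe set designed on a chalcone synthase mRNA, which the tables assign to LOC100263698, fell, with log2 changes of −5.17 and −6.13. Flavonol synthase LOC100232938 fell too (−3.82 and −4.30).

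All 3 probe sets of the proanthocyanidin branch, on which MYBPA1 acts, had negative log2 changes against the control. Of these, 1 was called lower at 6 h and 2 at 12 h. The study cites MYBPA1 as also inducing promoters of CHI, flavonoid 3′,5′-hydroxylase and LDOX. Of those, CHI rose 10.1-fold and 10.9-fold, while the flavonoid 3′,5′-hydroxylase LOC100232896 had log2 changes of −3.44 and −3.48. Of the 4 probe sets of the anthocyanin branch, 1 was called higher, 1 was called lower and 2 were not called at each time. The shares over all probe sets were 14.7% lower and 11.9% higher at 6 h, and 17.5% and 14.7% at 12 h. Leucoanthocyanidin reductase 2 (LAR2), of the proanthocyanidin branch, had log2 changes of −1.03 and −1.23 by one probe set and −0.88 and −0.77 by the other. All of these passed the adjusted p (at most 0.000405 from limma), and only those of the first probe set were past 2-fold. Its call at 6 h was lost with arrays centred on their medians and without control replicate 1, control replicate 2 or replicate 2 of 6 h. The anthocyanidin reductase-like LOC100258689 had a log2 change of −0.64 at 6 h, which was not called, and fell by 1.78 at 12 h. Without control replicate 1 the change at 6 h was −1.13 and was called, and without control replicate 3 it was −0.20. Leucoanthocyanidin dioxygenase (LDOX), needed for anthocyanins and for part of the proanthocyanidins, fell, with log2 changes of −3.43 and −3.24. Without control replicate 1 these were −4.12 and −3.92. LOC100264239, similar to an Arabidopsis leucoanthocyanidin dioxygenase-like protein, rose 75.7-fold and 174-fold.

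Of the partners of anthocyanin and proanthocyanidin MYB factors, MYCA1, a bHLH protein, fell and WDR1, a WD-repeat protein, rose. MYCA1 gave 342, 365 and 398 in the controls, 36.2, 24.3 and 37.7 at 6 h and 16.3, 24.0 and 22.1 at 12 h, with log2 changes of −3.52 and −4.16. WDR1 rose 4.81-fold and 3.19-fold by one probe set and 4.02-fold and 2.97-fold by the other. The log2 change of WDR2 was −0.21 and 0.25, and it was not called.

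The spread of MYBPA1 among the control arrays was shared with genes of phenylpropanoid and flavonoid enzymes and with genes outside these pathways. The pattern was noticed after the values were seen and is given with no test. On control replicate 1 the log2 signal of MYBPA1 differed by −2.53 from the mean of the other control arrays, and of 16436 probe sets only 1 lay further below. Of the 13 early flavonoid probe sets, 6 (46.2%) were at least 2-fold lower on control replicate 1 than on the others, against 74 (0.45%) of all probe sets. For 9 of the 13 (69.2%) control replicate 1 was lowest and control replicate 3 highest, as for MYBPA1 and LOC100256209, against 19.4% of all probe sets.

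The control signals of the chalcone synthase (CHS) probe sets show the size of this spread. One CHS probe set gave 530, 1506 and 4376 on control replicates 1, 2 and 3, and the other gave 594, 1582 and 3278. LDOX gave 312, 928 and 1788, and flavanone 3-hydroxylase (F3H) 329, 683 and 1651. Genes of other branches shared it in part. Of the 10 probe sets of phenylalanine ammonia-lyase, cinnamate 4-hydroxylase and 4-coumarate-CoA ligase, 2 (20%) were at least 2-fold lower on control replicate 1, and 6 (60%) had control replicate 1 lowest and control replicate 3 highest. At least 2-fold lower were also 1 of 3 probe sets of the proanthocyanidin branch and 1 of 4 of the anthocyanin branch. Stilbene synthases and the other MYB factors had no probe set at least 2-fold lower on control replicate 1, and neither had the leaf markers. Of the 22 probe sets of other MYB factors, 4 were at least 2-fold higher on control replicate 1, against 271 of all 16436. Outside these lists, the histone H3 genes LOC100258688 and LOC100260775 differed on control replicate 1 by −1.31 and −1.16 on the log2 scale. The spread was thus not limited to the phenylpropanoid and flavonoid genes, and what moved genes together on the control arrays was not tested.

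**Figure D4:**
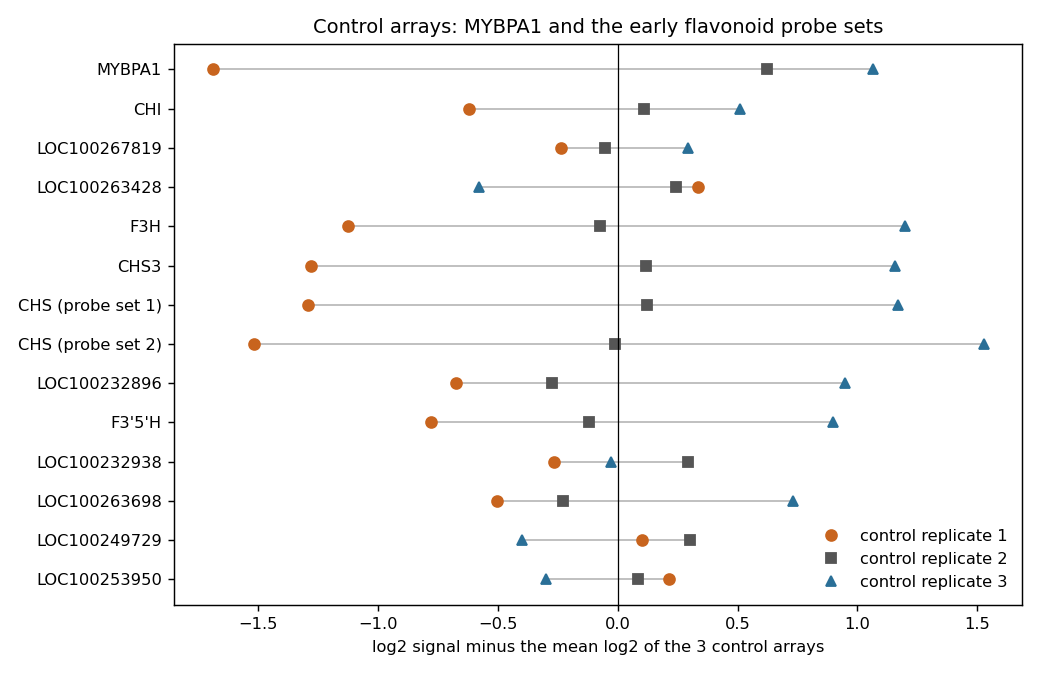
Log2 signal of each of the 3 control arrays minus their mean (horizontal axis) for MYBPA1 and the 13 early flavonoid probe sets; each symbol is 1 control array. Control replicate 1 is lowest for MYBPA1 and for 10 of the 13 early flavonoid probe sets.

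Likeness of profile was measured as the root mean square difference of the log2 change from the control mean over the 9 arrays. Only probe sets with a gene symbol in the annotation, the members left out, were searched. The measure says only that signals moved alike. The probe set nearest to the _s_at probe set of MYB14 was LOC100251716, similar to a 3-methyl-2-oxobutanoate hydroxymethyltransferase, at 0.24 log2 units (r = 0.998 over 9 arrays). Among its 5 nearest, 3 were probe sets of stilbene synthase 2, at 0.29, 0.36 and 0.37, and the other was LOC100251668 at 0.35. The _at probe set of MYB14 and LOC100254518 shared their nearest probe set, LOC100252878, similar to an alternative oxidase of mitochondria, at 0.23 and 0.28. The leucoanthocyanidin dioxygenase-like LOC100264239 was next for LOC100254518 at 0.29, followed by a short chain alcohol dehydrogenase-like gene (LOC100265103) at 0.31 and an osmotin-like gene (LOC100263272) at 0.32 and LOC100251128 at 0.365. The other near probe sets of the _at probe set of MYB14 were LOC100265131 at 0.25, LOC100256776 at 0.31, LOC100242337 at 0.32 and LOC100246875 at 0.33.

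The members that went down had other neighbours. Nearest to LOC100256209 were LOC100247851 at 0.14 and the glucanase-like LOC100267124 at 0.15, with a pectate lyase (LOC100232902) and a flavonoid 3′,5′-hydroxylase (LOC100232896) both at 0.22, as was LOC100248073. LOC100245771 was nearest to LOC100258559, similar to a polygalacturonase subunit, at 0.20, followed by LOC100267978 at 0.24, LOC100252455 at 0.27, the aquaporin PIP2 at 0.275 and LOC100247293 at 0.28. MYBPA1 had no close neighbour among the probe sets searched. Its nearest were histone H3 LOC100258688 at 0.56 (r = 0.875), LOC100260335 at 0.60, histone H4 LOC100267358 at 0.61, LOC100263034 at 0.61 and histone H3 LOC100260775 at 0.62. LOC100256181 was nearest to a protein phosphatase-like gene (LOC100256994) at 0.10, followed by LOC100265311, LOC100252099, LOC100247489 and LOC100262580 at 0.11 to 0.13. These distances grow with the size of the changes and with the spread within a group, and r over 3 groups of arrays is a description.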

How the data were processed

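RNA of 9 leaf samples was hybridized to Affymetrix V. vinifera Genome Arrays. The authors background-adjusted and quantile-normalized the signals with RMA and deposited 1 intensity per probe set and array, on a linear scale from 3.80 to 30874. Log2 was taken here. The deposited comparison tables of the authors repeat these intensities and add their SAM statistics (score, q-value and fold change), which were not used. Their annotation names 10471 probe sets. Whether the 3 arrays of a group came from separate vines is not given in the sources used here, so p-values measure the spread between these samples.

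After leaving out 165 control probe sets, 16436 entered a linear model of limma 3.58.1 (R 4.3.3; lmFit, eBayes), all 3 groups together without a replicate block (6 residual and 3.42 prior degrees of freedom), with Benjamini-Hochberg adjustment over all of them. The fit was checked on simulated data. Likeness of profiles, counts of annotation words and figures used Python 3.11.15, pandas 2.3.3, numpy 2.4.6 and matplotlib 3.10.9. The number of arrays limits the precision.

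The named genes were all probe sets of the members, per list up to 2 risers and 2 fallers called at both times (3 each for other MYB factors) with the largest change at 12 h, and the 5 nearest profiles per member probe set. Genes outside this rule (MYB4A, LOC100233136, WDR2, LOC100258689, LOC100241377, CHS, F3H, the genes given in the closing section for their change between 6 h and 12 h, and the second LAR2 probe set) were chosen after their values were seen. Lists are word searches in which probe sets of a gene are counted separately. Members and lists were chosen with earlier results of these data known. The alternatives were no fold threshold, a fit of the 2 groups compared, a mean-variance trend with robust estimation, centring on the array median or on 18 hybridization controls, a further quantile normalization, 16 added before log2, leaving out probe sets with a mean log2 under 5, a replicate block and each array left out in turn.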

Additional observations from a re-analysis of the deposited data

Results flagged for a closer look

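Among the pathway and MYB lists, 8 probe sets changed by a different amount at 12 h than at 6 h against the shared control. This was by the limma test of 12 h against 6 h (adjusted p under 0.05 and at least 2-fold). The 7 lists held 12, 10, 13, 3, 4, 4 and 22 probe sets, and 6.88% of all 16436 probe sets were called in this test. Nothing is read from the count of 8, and no probe set of the 6 MYB genes was called. Of the other MYB factors, LOC100260318, similar to MYB139, gave 138, 115 and 161 in the controls, 64.4, 74.5 and 83.7 at 6 h and 333, 447 and 368 at 12 h, a log2 difference of 2.36 between 12 h and 6 h (adjusted p = 3.8e-05). LOC100246481, with a weak similarity to an Arabidopsis MYB protein, was higher at 12 h than at 6 h by 1.20 on the log2 scale (adjusted p = 0.00604), but by 0.95, under 2-fold, without replicate 3 of 12 h. LOC100246960 differed by −2.90 (adjusted p = 0.00106).

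Of the enzymes, the flavonol synthase-like LOC100267819 gave 266, 303 and 385 in the controls, 621, 493 and 572 at 6 h and 3130, 3828 and 2898 at 12 h, a log2 difference of 2.54 (adjusted p = 3.8e-05). A stilbene synthase 2 probe set without a gene symbol was higher at 12 h by 1.87 (adjusted p = 0.000934), and the leucoanthocyanidin dioxygenase-like LOC100264239 by 1.20 (adjusted p = 0.00196). The flavonoid hydroxylase-like LOC100263428 differed by −1.88 (adjusted p = 0.000534) and the anthocyanidin reductase-like LOC100258689 by −1.14 (adjusted p = 0.0465), and the call of LOC100258689 was lost under 12 of 18 alternatives, where its adjusted p reached 0.141. All log2 differences are 12 h minus 6 h with 3 arrays per group.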

How the results depend on the processing

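The direction of the members against the control was the same under every alternative run. For the 6 probe sets whose arrays did not overlap with the control, leaving out an array could not have turned it. At 12 h against 6 h, no fold threshold gave 1 member called higher (LOC100254518) and 1 called lower (LOC100256181) in place of 0 and 0. Leaving out each array gave 4 called higher and 2 to 3 called lower at 6 h, 3 higher and 2 to 3 lower at 12 h, and 0 at 12 h against 6 h. For the 22 other MYB probe sets no fold threshold gave 7 and 8 higher at 6 h and 12 h, in place of 3 and 4. At 6 h it also added lower calls, among them LOC100260318 (log2 −0.89). Over all probe sets it gave 8686 calls at 6 h, 9673 at 12 h and 4719 at 12 h against 6 h, in place of 4367, 5291 and 1130. Centring on the array median or on the hybridization controls shifted the median of all log2 changes by 0.135 or −0.162 at 6 h and by 0.141 or −0.143 at 12 h, and the share of higher calls at 6 h was 44.8% as deposited, 52% and 36.6%, and at 12 h 45.5%, 51.7% and 39.2%.

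The deviations of same-numbered arrays correlated at −0.162 to 0.138 over 9 pairs, and those of differently numbered arrays at −0.16 to 0.246. With 3 arrays per group this cannot decide whether the numbers pair the samples. With the replicate block the members called were 4 and 2 at 6 h and 3 and 2 at 12 h, as without it, and the adjusted p at 12 h against 6 h was 0.00825 for LOC100254518 and 0.00912 for LOC100256181. Of the list counts, the block moved that of the proanthocyanidin branch at 12 h against 6 h, from 1 lower to 0, as did the trend with robust estimation, hybridization-control centring, the further quantile normalization, the added 16 and the omission of control replicate 2 or of any array at 6 h or 12 h. At 6 h the count lower in that branch was 0 in place of 1 with median centring and without control replicate 2 or replicate 2 of 6 h, and 2 with no fold threshold or hybridization-control centring.

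The 2-fold threshold leaves smaller differences uncalled whatever their p-value. Without detection calls the folds of MYB14 and LOC100254518 rest on dim control signals, and those of LOC100245771 and LOC100256209 on dim signals after UV-C.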
